A study of Mus musculus with 3 samples.

Results

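The collagen genes described here are 36 mouse genes that encode collagen chains, chosen by name as a family and grouped by the structure their proteins build. They are 7 fibrillar, 9 basement membrane, 7 cartilage, 5 beaded filament and network, 4 fibril-associated and 4 transmembrane genes. A probe could be matched to 34 of the 36, out of 16998 genes with a matched probe in all, and no probe matched Col6a3 or Col12a1. Their RNA was measured in the primordia of esophagus, stomach and intestine of ICR mouse embryos, an outbred stock, at embryonic day 11.5 (E11.5). Total RNA was labelled with Cy3 and hybridised to 1-colour Agilent expression arrays, with 1 array per organ, untreated. The organ of each array is that of its title and tissue label, because the extraction text names stomach for all 3 samples. How many embryos made up a sample is not given in the labels.

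Collagens are secreted or membrane proteins whose chains wind into a triple helix. Fibrillar collagens assemble into the banded fibrils that give connective tissue its tensile strength, type IV collagen forms the sheet-like network of basement membranes, and types II, IX and XI make the fibrils of cartilage and of the notochord sheath. In the early gut tube the mesenchyme around the epithelium makes most of the fibrillar collagen, and both layers contribute to the basement membrane between them.

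The windows before the transcription start sites are shown for the genes whose values the account below returns to, because partner chains of 1 protein or neighbours in the genome could be set side by side. The sequences are those of RefSeq on assembly GRCm38.p6, on the gene's own strand, 5′ to 3′, each ending 1 base before the start site. Capitals mark the letters of the CCAAT box (CCAAT itself), of the GC box (spelled GGGCGG) and of the TATA box (spelled TATAAA), each searched on both strands, with overlapping matches allowed. A window with no capitals holds none of them. Col1a2 encodes the second chain of type I collagen, the main fibrillar collagen (chr6:4505368-4505617, plus strand).
Col1a2: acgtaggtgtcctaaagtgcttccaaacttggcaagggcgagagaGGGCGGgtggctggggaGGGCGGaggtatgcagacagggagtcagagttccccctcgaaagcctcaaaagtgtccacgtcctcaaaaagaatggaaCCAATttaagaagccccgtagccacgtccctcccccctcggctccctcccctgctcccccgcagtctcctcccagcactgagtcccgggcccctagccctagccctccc
Col6a1 and Col6a2 encode chains of type VI collagen, which forms beaded microfilaments. They lie next to each other with 0 coding genes between them (chr10:76726045-76726294 and chr10:76623631-76623880, minus strand), and the second has a further listed start nearby. The window of that further start (chr10:76623405-76623654) is not shown and held 3 matches of the GC box, the nearest 11 bases before the start.
Col6a1: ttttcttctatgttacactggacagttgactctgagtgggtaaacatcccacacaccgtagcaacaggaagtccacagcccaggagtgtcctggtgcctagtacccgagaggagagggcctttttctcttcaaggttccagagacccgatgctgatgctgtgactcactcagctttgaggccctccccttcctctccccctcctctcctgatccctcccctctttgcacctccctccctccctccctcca
Col6a2: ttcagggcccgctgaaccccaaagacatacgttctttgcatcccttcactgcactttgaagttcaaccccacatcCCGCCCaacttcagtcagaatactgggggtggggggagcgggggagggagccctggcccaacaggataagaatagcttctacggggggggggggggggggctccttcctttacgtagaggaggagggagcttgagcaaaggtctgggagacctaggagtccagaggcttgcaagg
Col8a1 and Col8a2 encode the chains of type VIII collagen, a short network-forming collagen (chr16:57754738-57754987, minus strand, and chr4:126286544-126286793, plus strand).
Col8a1: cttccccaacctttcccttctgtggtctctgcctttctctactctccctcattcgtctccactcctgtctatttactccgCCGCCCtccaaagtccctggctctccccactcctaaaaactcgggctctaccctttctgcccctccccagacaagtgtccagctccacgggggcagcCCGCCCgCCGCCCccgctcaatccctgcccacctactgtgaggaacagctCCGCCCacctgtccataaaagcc
Col8a2: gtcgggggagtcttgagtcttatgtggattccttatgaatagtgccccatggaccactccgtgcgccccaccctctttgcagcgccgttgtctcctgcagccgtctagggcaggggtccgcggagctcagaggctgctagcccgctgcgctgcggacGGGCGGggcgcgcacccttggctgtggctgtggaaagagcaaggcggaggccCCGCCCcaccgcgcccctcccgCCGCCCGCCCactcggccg
Col9a1 and Col9a2 encode chains of type IX collagen, which decorates type II fibrils. Col9a1 is known to be transcribed from alternative start sites, and both listed windows are given (chr1:24177360-24177609 and chr1:24194953-24195202, plus strand), with that of Col9a2 after them (chr4:121039316-121039565, plus strand).
Col9a1, upstream start: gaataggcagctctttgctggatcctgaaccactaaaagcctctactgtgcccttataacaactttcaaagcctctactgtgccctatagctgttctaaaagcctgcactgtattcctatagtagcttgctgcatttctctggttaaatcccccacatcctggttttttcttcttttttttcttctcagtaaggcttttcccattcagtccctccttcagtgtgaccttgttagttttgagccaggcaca
Col9a1, downstream start: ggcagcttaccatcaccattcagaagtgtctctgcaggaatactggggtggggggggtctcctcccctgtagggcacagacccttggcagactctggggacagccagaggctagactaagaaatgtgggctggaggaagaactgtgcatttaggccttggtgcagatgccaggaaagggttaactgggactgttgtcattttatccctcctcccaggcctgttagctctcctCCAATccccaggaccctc
Col9a2: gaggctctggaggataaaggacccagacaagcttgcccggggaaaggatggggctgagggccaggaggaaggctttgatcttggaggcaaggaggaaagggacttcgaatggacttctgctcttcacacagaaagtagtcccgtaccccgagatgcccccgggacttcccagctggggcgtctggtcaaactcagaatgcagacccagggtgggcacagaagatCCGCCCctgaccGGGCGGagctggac
Col4a1 and Col4a2, the common chains of type IV collagen, are transcribed in opposite directions from starts close together on chromosome 8. Their windows of 300 bases (250 before the start and the first bases of the transcript) overlap by 78 bases. The 250 bases before each start (chr8:11312827-11313076 for Col4a1 and chr8:11312555-11312804 for Col4a2) do not overlap. By the listed starts, each of these lies on the side towards which the other gene is transcribed. The 30 bases around the CCAAT letters of each are shown (chr8:11312954-11312983, minus strand, and chr8:11312761-11312790, plus strand), with the box starting 145 and 32 bases before the start.
Col4a1: tgcttgcccgggATTGGcgagccaaggggc
Col4a2: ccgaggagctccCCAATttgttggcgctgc

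Windows were listed for 29 of the 36 genes, 32 windows in all. The letters GGGCGG stood in 19 of 32 windows (59.4%), against 32.7% of the 32851 windows of all genes. CCAAT stood in 12 (37.5%, against 33.8%) and TATAAA in 5 (15.6%, against 12.4%). The collagen windows also held more G and C, with a median of 60% against 52.4%. These are matches of letters and not sites of binding.

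Each level is a processed signal on the log2 scale, relative to the 75th percentile of its array, so that 1 log2 unit is 2-fold. Measured means that most spots of the probe were well above background there. Each gene is represented by its brightest probe, and levels are compared between organs and not between genes. With 1 array per organ no test was possible and no difference has a replicate check. The spread that could be measured is that between probes of 1 gene, whose differences from esophagus had a median SD of 0.25 log2 units in stomach and 0.46 in intestine, and of 0.31 between intestine and stomach. The 3 comparisons share their arrays, so that the last follows from the others.

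The organ labels were checked against 8 identity genes. Barx1, a homeobox gene of stomach mesenchyme, was highest in stomach (0.87 in esophagus, 4.43 in stomach, −4.39 in intestine), and Cdx2, the intestinal homeobox gene, was not measured in esophagus and stood at −4.37 in stomach and 1.85 in intestine. Not every gene of the list followed these. Cdx1 did not go with Cdx2, being measured in stomach alone, at −5.57. Pdx1 was not measured in esophagus and stood at −3.71 in stomach and −4.12 in intestine. Before scaling, the 75th percentile lay at 393, 334 and 1023 in esophagus, stomach and intestine, and 67.9% to 74.0% of spots were well above background. All 9 heart markers were measured on each array, and summed to 128 times the 75th percentile in esophagus, against 3.38 in stomach and 4.0 in intestine. Of 7 trachea and lung markers, 7 were measured in esophagus, 4 in stomach and 3 in intestine, Nkx2-1, Tbx4 and Sftpc being not well above background on both other arrays. The summed signal of the liver markers was 11.3, 9.96 and 90.1, so that the intestine array carried more liver RNA signal. The part of heart, airway and liver tissue in the collagen values below was not tested.

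Across the 3 organs, 31 collagen genes were measured on every array, Col19a1 on 2, and Col4a3 and Col10a1 on none. Col10a1 is the collagen of hypertrophic cartilage and Col4a3 a chain of the kidney-type basement membrane. More of them were highest in esophagus than in either other organ. Of the 31, 16 were highest in esophagus (51.6%, against 27.5% of the 12864 genes measured on all 3 arrays), 4 in stomach (12.9%, against 32.5%) and 11 in intestine (35.5%, against 40.1%). The highest and lowest organ of a gene lay a median of 1.19 log2 units apart, against 0.59 for all such genes. Of the 31, 18 spanned at least 2-fold and 6 at least 4-fold. The share of all genes with such spans was not counted, so these counts have no background.

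**Figure D1:**
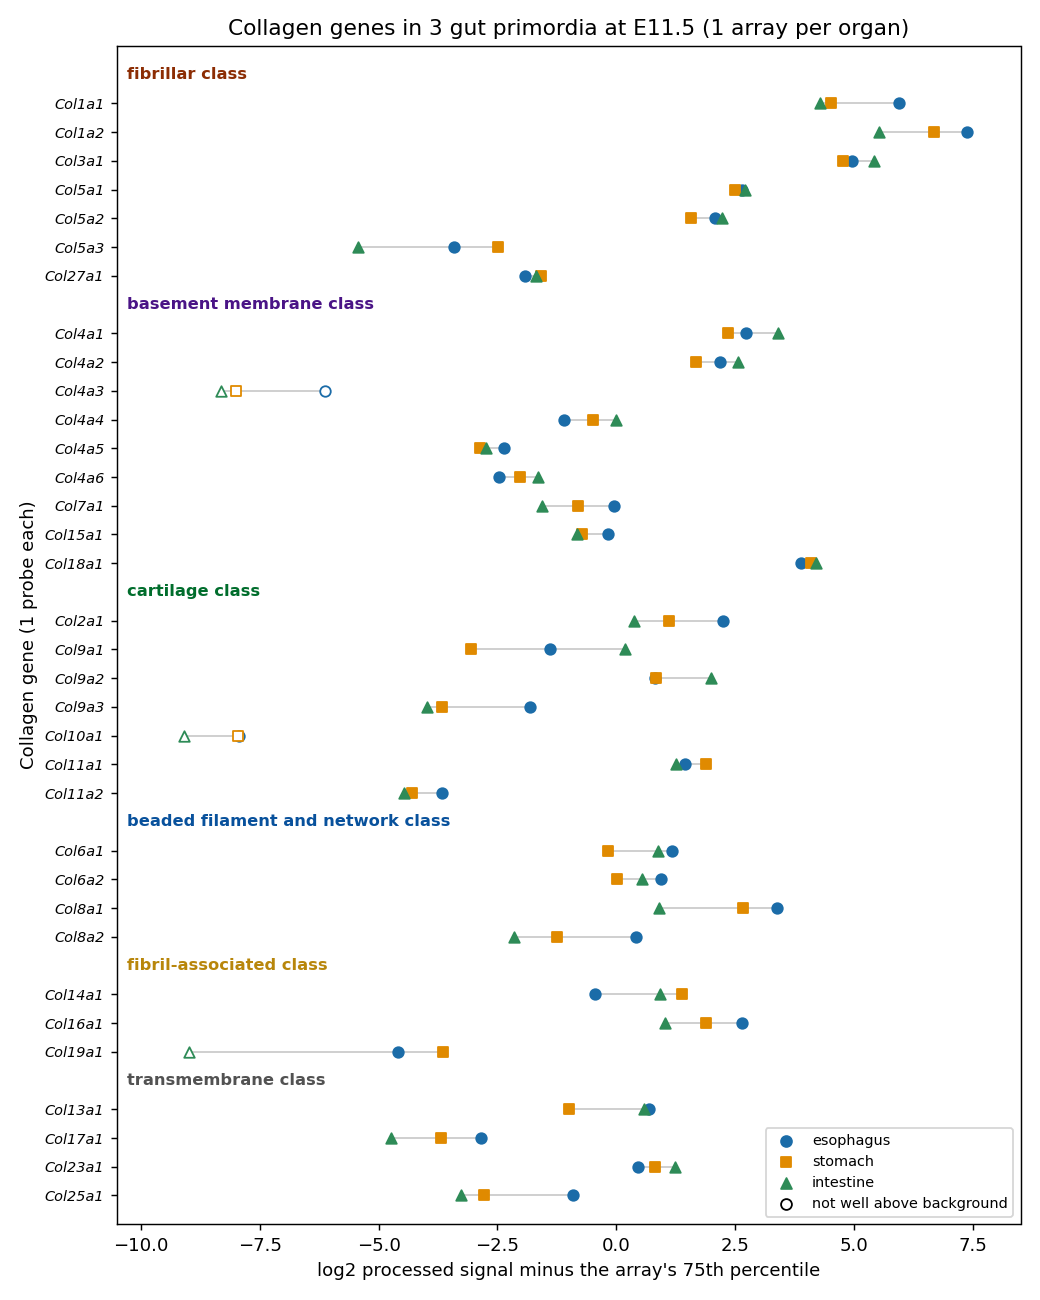
Level of each collagen gene with a matched probe in the 3 organs, by class, on a log2 scale relative to each array's 75th percentile, with 1 probe a gene and 1 array an organ (open symbols were not well above background; positions can be read across organs of a gene, not between genes). Esophagus is the highest symbol for 16 of the 31 genes measured on all 3 arrays, and Col9a1, Col5a3, Col8a2 and Col8a1 have the widest spans among them.

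Setting stomach against esophagus asks how neighbouring foregut organs differ. Of 32 collagen genes compared, 1 was at least 2-fold higher in stomach (background 4.14% of all genes) and 8 were at least 2-fold lower (background 5.71%); quantile normalization gave 3 higher and 8 lower. The remaining 23 lay within 2-fold. The median difference was −0.53, against 0.15 for all 13737 genes, and 22 of the 32 lay below 0 (background 38%). The gene higher in stomach was Col14a1, and the 8 lower ones were Col25a1, Col9a3, Col13a1, Col8a2, Col9a1, Col1a1, Col6a1 and Col2a1.

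Between intestine and esophagus, intestine was at least 2-fold higher for 4 of 32 collagen genes (Col9a1, Col14a1, Col9a2 and Col4a4; background 8.74%). At least 2-fold lower were 12 (background 12%), led by Col8a2, Col8a1, Col19a1 and Col25a1. The median difference was −0.33, against 0.13 for all 13905 genes, and 19 of 32 lay below 0 (background 41.2%).

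Between intestine and stomach the collagen genes went both ways. Higher by at least 2-fold in intestine were 5 (Col9a1, Col13a1, Col9a2, Col6a1 and Col4a1; background 4.96%) and at least 2-fold lower were 5 (Col19a1, Col5a3, Col8a1, Col1a2 and Col17a1; background 7.47%). Centring on the median instead of the 75th percentile gave 3 higher and 5 lower, quantile normalization 5 and 3, and averaging the probes of a gene 6 and 9. The median difference was −0.11 against −0.02 for all 13820 genes, and 17 of 32 lay below 0 (background 51.8%). Under quantile normalization the collagen median turned to 0.07, where that of all genes was 0.06.

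At least 2-fold above both other organs were 5 genes in esophagus (Col1a1, Col2a1, Col8a2, Col9a3 and Col25a1; background 3.33% of genes measured on all arrays), 0 in stomach (background 0.801%) and 2 in intestine (Col9a1 and Col9a2; background 2.53%). At least 2-fold below both others were Col14a1 in esophagus, Col6a1, Col9a1 and Col13a1 in stomach, and Col1a2, Col5a3, Col8a1 and Col17a1 in intestine. The share of all genes below both others was not counted, so these names have no background.

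**Figure D2:**
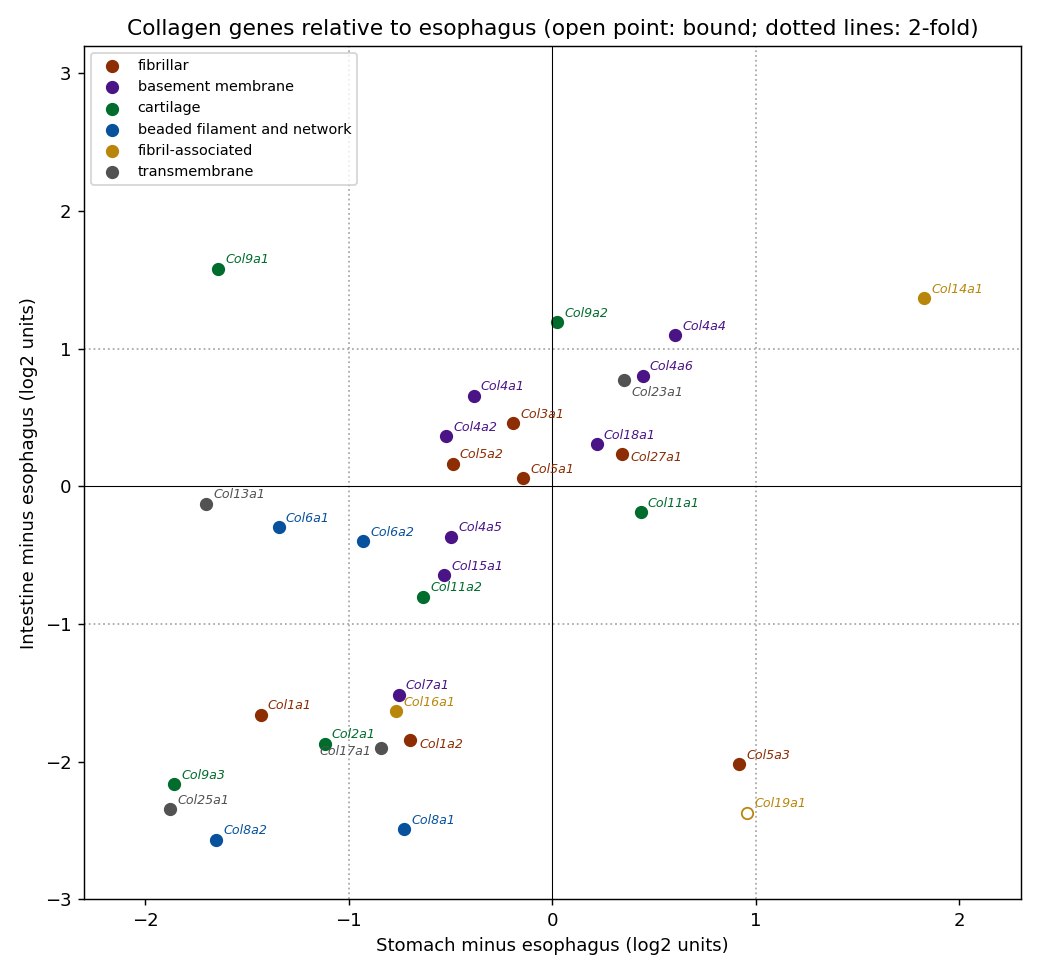
Difference of stomach from esophagus (horizontal) and of intestine from esophagus (vertical) in log2 units for the 32 collagen genes compared, coloured by class; both axes share the esophagus array, and dotted lines mark 2-fold. Col14a1 lies above 2-fold on both axes, Col9a1 lies below on one and above on the other, and Col8a2, Col9a3, Col25a1, Col1a1 and Col2a1 lie below the 2-fold line on both.

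Type I collagen, the main fibrillar collagen of connective tissue, was highest in esophagus for both of its chains. Col1a1 stood at 5.95 in esophagus, 4.52 in stomach and 4.29 in intestine. Its probe was printed on 10 spots, of which 9 were used in esophagus, and the SD over spots was 0.060, 0.067 and 0.061 log2 units, which covers the scatter within an array and not that between samples. Esophagus was highest, 2.70-fold above stomach and 3.16-fold above intestine. Intestine minus stomach was −0.23 log2 units by this probe, and −0.27 and −1.41 by the others, so that the size of that step was not settled. Its other probes gave −1.57 and −1.75 for stomach minus esophagus and −1.84 and −3.15 for intestine minus esophagus, the same direction each time.

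Col1a2 stood at 7.37 in esophagus, 6.67 in stomach and 5.52 in intestine. Here intestine was the lowest organ, 3.60-fold below esophagus and 2.22-fold below stomach, the latter falling to −0.90 log2 units under quantile normalization. The partner chains were thus similarly lower in intestine than in esophagus (−1.66 and −1.85) and differed by 0.74 log2 units in how far stomach lay below esophagus (−1.43 and −0.70).

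Col3a1, whose collagen co-assembles with type I in elastic and hollow organs, stood at 4.97, 4.77 and 5.43 in esophagus, stomach and intestine. Its dimmer probe went the other way in intestine, with −0.02, −0.42 and −1.52, so that intestine minus esophagus was 0.46 by the first probe and −1.49 by the second. The order of the organs for Col3a1 was therefore not settled by these probes.

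Type V collagen starts and limits the growth of type I fibrils. Col5a1 stood at 2.65, 2.50 and 2.70, the smallest span of any collagen gene measured on all arrays (0.20 log2 units), although its other probe gave −0.95 for stomach and −0.96 for intestine relative to esophagus. Col5a2, the next gene to Col3a1 in the genome, stood at 2.06, 1.57 and 2.23. Intestine minus stomach was 0.65 for both neighbours by the brightest probes, but −1.09 by the dimmer probe of Col3a1.

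Col5a3, another type V chain, had a different pattern from both. It stood at −3.41 in esophagus, −2.49 in stomach and −5.42 in intestine, which put intestine 4.05-fold below esophagus and 7.65-fold below stomach. Stomach was 1.89-fold above esophagus. These signals were dim, and normexp background correction gave −1.43, −1.92 and 0.49 for the same differences. Col27a1, a fibrillar collagen linked to cartilage and bone growth, stood at −1.92, −1.58 and −1.68, with all organs within 0.34 log2 units.

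As a class, the 7 fibrillar genes had a median difference from esophagus of −0.19 in stomach and 0.06 in intestine, and of −0.11 between intestine and stomach. The median for intestine against esophagus turned to −0.06 with median centring, −0.07 with quantile normalization, −0.08 with normexp and −0.52 when probes were averaged. Relative to esophagus, 1 of 7 was at least 2-fold lower in stomach (background 5.71%) and 3 in intestine (background 12%), and 2 were lower in intestine than in stomach (background 7.47%). None of the 7 was at least 2-fold higher in these comparisons (0 of 7 in each; background 4.14%, 8.74% and 4.96%).

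Type IV chains of the basement membrane did not follow type I. Col4a1 stood at 2.73 in esophagus, 2.35 in stomach and 3.39 in intestine, and Col4a2 at 2.19, 1.67 and 2.55. By these probes both chains were highest in intestine and lowest in stomach. The second Col4a1 probe, at 1.19, 1.29 and 2.22, also had intestine highest but esophagus marginally lowest. Intestine stood above stomach by 1.04 log2 units for Col4a1 (0.99 with median centring or averaged probes) and by 0.89 for Col4a2. By the brightest probes, the pair differed from each other by 0.14 to 0.29 log2 units in the 3 comparisons. Their second probes lay further apart in each. For Col4a1 and Col4a2 these gave 0.93 and 1.28 for intestine minus stomach. They gave 0.10 and −0.87 for stomach minus esophagus, and 1.03 and 0.42 for intestine minus esophagus.

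The other type IV pairs replace these chains in specialised basement membranes. Col4a4 stood at −1.09, −0.49 and 0.00 in esophagus, stomach and intestine, 2.14-fold higher in intestine than in esophagus (0.95 log2 units after normexp and 0.98 with median centring). Col4a5 stood at −2.37, −2.87 and −2.73. Col4a6 stood at −2.46, −2.02 and −1.66. Col4a5 and Col4a6 also adjoin each other in the genome with 0 coding genes between, and intestine minus esophagus was −0.37 for the first and 0.80 for the second. A second probe of Col4a6, not well above background in stomach, gave −1.21 as a bound for stomach minus esophagus, against 0.44 for the one used.

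Among basement membrane collagens outside type IV, Col7a1, which forms the anchoring fibrils under stratified epithelium, stood lower in each organ along the tube, at −0.05, −0.81 and −1.57. Intestine was 2.85-fold below esophagus. Col15a1, a multiplexin of muscle and vessel basement membranes, stood at −0.18, −0.71 and −0.83, and Col18a1, the source of endostatin, at 3.89, 4.10 and 4.19. Both stayed within 2-fold across organs.

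Of 8 basement membrane genes compared, all 8 lay within 2-fold in stomach against esophagus (background 90.2%). In intestine against esophagus 1 was higher (Col4a4; background 8.74%) and 1 lower (Col7a1; background 12%), and in intestine against stomach 1 was higher (Col4a1; background 4.96%). With so few genes these counts lie near the background. The class medians were −0.44, 0.34 and 0.25, and those of the type IV genes alone −0.39, 0.66 and 0.50. The summed signal of the 9 endothelial markers, cells with a type IV rich basement membrane, was 18.9, 16.3 and 21.1 in esophagus, stomach and intestine. By gene, 8 of these 9 lay below 0 in stomach against esophagus (background 38%). In intestine 1 of 9 did against esophagus (background 41.2%) and 1 of 9 against stomach (background 51.8%). Only Tek was at least 2-fold apart, with −1.60 for stomach minus esophagus and 1.73 for intestine minus stomach. The summed signal of the gut epithelium markers was 35.0, 98.1 and 51.1. This sum rests mainly on Krt8 and Krt18, which stood at 4.88 and 5.87 in stomach. Counted by gene, 3 of 9 epithelium markers lay below 0 in stomach against esophagus (background 38%). In intestine against esophagus 4 of 9 did (background 41.2%). Cdh1, Cldn4 and Grhl2 were below esophagus in both. The part of endothelium and epithelium in the type IV values was not tested.

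The cartilage class held genes that differed in opposite directions between intestine and esophagus. Col2a1, the main collagen of cartilage and notochord, stood at 2.23 in esophagus, 1.12 in stomach and 0.37 in intestine, with SDs over up to 10 spots of 0.053, 0.055 and 0.11. Esophagus was 2.17-fold above stomach and 3.65-fold above intestine, and stomach was 1.68-fold above intestine. The second Col2a1 probe kept that order with 1.85, 0.47 and −1.42.

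The 3 chains of type IX collagen, which join in 1 molecule, went separate ways. Col9a1 stood at −1.40 in esophagus, −3.05 in stomach and 0.18 in intestine. No other collagen gene measured on all arrays spanned as much. Intestine was 9.36-fold above stomach and 2.99-fold above esophagus, and stomach was 3.12-fold below esophagus. Dim signals carry the stomach value, and normexp gave −0.95 for stomach minus esophagus and 2.20 for intestine minus stomach.

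Col9a2 stood at 0.80, 0.83 and 2.0, level in esophagus and stomach and 2.29-fold higher in intestine than in esophagus. Col9a3 stood at −1.81, −3.67 and −3.97, highest in esophagus, 3.63-fold above stomach and 4.48-fold above intestine. After normexp, stomach minus esophagus was −0.86 for Col9a3. Thus Col9a1 and Col9a3 differed by 0.21 log2 units in the step from esophagus to stomach and by 3.74 in the step from esophagus to intestine. Each of the type IX genes was matched by 1 probe, so none of these values could be set against a second probe.

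Type XI chains sit in the core of cartilage fibrils and are also made in other mesenchyme. Col11a1 stood at 1.45, 1.89 and 1.26 in esophagus, stomach and intestine, but its dimmer probe stood at −0.65 in esophagus and −3.0 in intestine. Col11a2 stood at −3.67, −4.31 and −4.47, and its other probe at −5.04, −4.69 and −3.79, in the opposite order. Neither type XI gene therefore had a difference in which its probes agreed within 0.5 log2 units for intestine against esophagus.

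The cartilage class had median differences from esophagus of −0.88 in stomach (−0.47 after normexp) and −0.49 in intestine, and of −0.24 between intestine and stomach, the last turning to 0.07 under quantile normalization and 0.03 with averaged probes. In stomach against esophagus 3 of 6 genes were at least 2-fold lower (background 5.71%), or 1 after normexp, when Col9a1 and Col9a3 were lost. In intestine against esophagus 2 were higher (background 8.74%) and 2 lower (background 12%), and in intestine against stomach 2 were higher (background 4.96%).

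Other cartilage genes were read beside these collagens. Sox9, a transcription factor of cartilage that activates Col2a1 and also acts in gut and airway progenitors, stood at 1.49 in esophagus, 0.43 in stomach and −0.42 in intestine. That is the organ order of Col2a1, and also of Col1a1, Col1a2, Col8a1 and Lox. The share of all genes with that order was not counted. Sox5 and Sox6, its partners in cartilage, were within 2-fold in all 3 comparisons, and aggrecan (Acan), the large cartilage proteoglycan, stood at −3.55, −3.35 and −3.70.

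The matrilins Matn1 and Matn3 and chondromodulin (Cnmd), markers of differentiated cartilage, were not well above background on any array. Pax1, a gene of sclerotome and pharyngeal pouches, was measured in esophagus alone, at least 16.8-fold above stomach and at least 36.9-fold above intestine by the rule for dim probes. Normexp gave it smaller differences from esophagus, of −1.35 in stomach and −2.68 in intestine on the log2 scale. Hapln1, which links proteoglycan to hyaluronan, stood at −0.67, −2.56 and −1.97. Epyc, a small proteoglycan of cartilage, stood at −0.50, −1.32 and 0.60, high in intestine and low in stomach, which is the organ order of Col9a1. By their brightest probes Col3a1, Col4a1 and Col4a2 had that order too, and its share of all genes was not counted. Of 14 matched genes of this list, 0 were higher and 3 lower of 11 compared in stomach against esophagus (background 4.14% and 5.71%), 1 and 4 of 11 in intestine against esophagus (8.74% and 12%), and 1 and 1 of 10 in intestine against stomach (4.96% and 7.47%).

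In the beaded filament and network class, the partner chains lay close in intestine against esophagus and further apart in the other comparisons. Col6a1 stood at 1.17 in esophagus, −0.18 in stomach and 0.87 in intestine, and Col6a2 at 0.95, 0.01 and 0.55. Stomach was the lowest organ for both, 2.54-fold and 1.91-fold below esophagus. Intestine minus stomach was 1.05 for Col6a1 (0.99 with median centring) and 0.53 for Col6a2.

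Type VIII collagen had the largest shared difference between intestine and esophagus among the partner pairs. Col8a1 stood at 3.39, 2.66 and 0.90 in esophagus, stomach and intestine, and its second probe gave −0.59 for stomach and −2.33 for intestine relative to esophagus. Col8a2 stood at 0.42, −1.24 and −2.15. The 2 genes lie on different chromosomes, and intestine was 5.62-fold and 5.93-fold below esophagus, a gap between them of 0.08 log2 units. In stomach they were 1.66-fold and 3.15-fold below esophagus, a gap of 0.92 log2 units, and for intestine against stomach the gap was 0.85. The class medians over 4 genes were −1.14, −1.45 and −0.19.

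The fibril-associated collagens bridge fibrils to their surroundings. Col14a1, which coats type I fibrils in tendon and dermis, stood at −0.45 in esophagus, 1.37 in stomach and 0.91 in intestine, lowest in the organ where type I was highest. Stomach was 3.55-fold and intestine 2.58-fold above esophagus, by the probe used. A much dimmer probe, not well above background in esophagus, gave 1.69 as a bound for stomach minus esophagus and −2.0 for intestine minus stomach, against −0.46 for the one used. Col16a1 stood at 2.65, 1.89 and 1.02, 3.10-fold lower in intestine than in esophagus, with −2.77 by its second probe.

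Col19a1, a collagen needed in the muscle of the esophagus, stood at −4.60 in esophagus and −3.64 in stomach and was not well above background in intestine. Intestine was at least 5.17-fold below esophagus and at least 10.02-fold below stomach by the rule for dim probes, while normexp gave −1.54 and −1.90 log2 units. The next gene in the genome is Col9a1, which was highest in intestine, with 0 coding genes between them.

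The transmembrane collagens are anchored in the cell surface. Col13a1, found at adhesion sites and the neuromuscular junction, stood at 0.70, −1.0 and 0.57, so that stomach alone was low, 3.25-fold below esophagus and 2.98-fold below intestine. Col17a1, a hemidesmosome collagen of stratified epithelium, stood at −2.85, −3.69 and −4.75, and intestine was 3.73-fold below esophagus. Intestine minus stomach was −1.06 for Col17a1 and −0.77 under quantile normalization. Stomach minus esophagus was −0.84 for Col17a1 but only −0.11 after normexp, so that this step was not settled. The second Col17a1 probe was not well above background on any array. Trp63, the transcription factor of stratified epithelium, stood at 0.25 in esophagus and −2.21 in stomach and was not well above background in intestine, the same order as Col17a1 and Col7a1. Other genes given here, such as Col1a1 and Lox, had that order too, and its share of all genes was not counted.

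Col25a1, a collagen of muscle and neurons needed for motor innervation, stood at −0.91, −2.79 and −3.26. Esophagus was highest, 3.68-fold above stomach (−1.22 log2 units for stomach minus esophagus after normexp) and 5.08-fold above intestine. Skeletal muscle markers summed to 2.35, 0.13 and 0.11 on the 3 arrays, with 4, 3 and 5 of 6 measured. Their part in the Col25a1 value was not tested. Col23a1 stood at 0.47, 0.82 and 1.24 by its brighter probe and at −1.13, −1.48 and −1.96 by the other, which is the opposite order.

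Probes of 1 collagen gene disagreed most for intestine. Relative to esophagus, probes had opposite signs for 5 of 19 genes in stomach and 5 of 17 in intestine, and for 5 of 19 between intestine and stomach. The share of all genes with opposite signs was not counted. For collagen genes the median SD between probes was 0.24 in stomach against esophagus, where all genes had 0.25. It was 0.57 in intestine against esophagus (all genes 0.46) and 0.37 in intestine against stomach (all genes 0.31). Differences of over 0.5 log2 units in both directions were seen for Col11a2 and Col23a1 in intestine against esophagus and for Col3a1 in intestine against stomach.

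**Figure D3:**
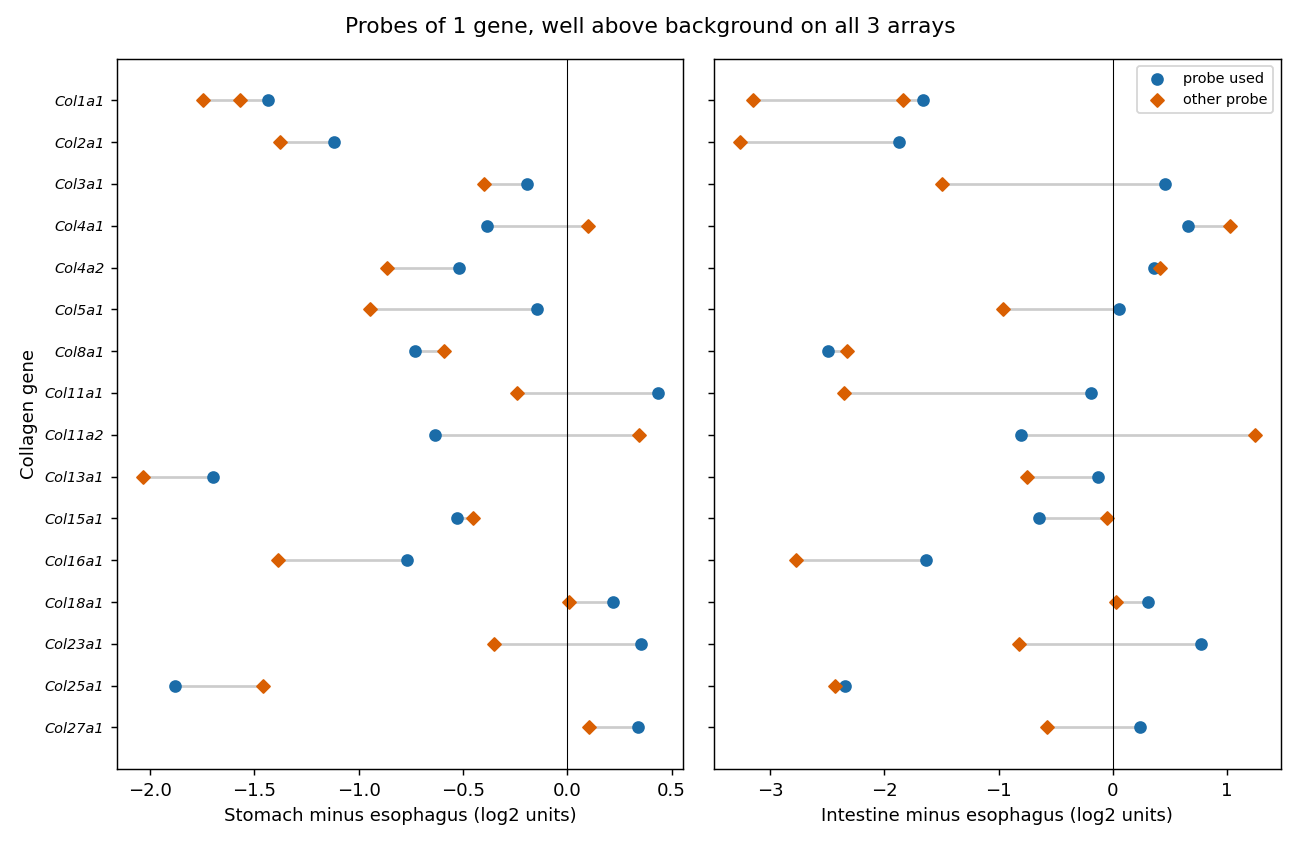
Differences from esophagus in log2 units given by each probe of the 16 collagen genes with at least 2 probes measured on all arrays, for stomach on the left and intestine on the right; circles are the probes used and diamonds the others. The probes of Col1a1, Col2a1, Col8a1, Col16a1 and Col25a1 lie on 1 side of 0 in both panels, while those of Col3a1, Col5a1, Col11a2, Col23a1 and Col27a1 straddle 0 for intestine.

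Genes that fold and modify collagen chains mostly lay within 2-fold, as most genes did. All 19 were measured on every array, and 17 of 19 lay within 2-fold in each comparison, against 90.2%, 79.3% and 87.6% of all genes, with medians of −0.11, −0.37 and −0.03. Serpinh1, the collagen-specific chaperone HSP47, stood at 6.36 in esophagus, 6.33 in stomach and 5.52 in intestine. Apart from the rest in all 3 comparisons was P4ha3, a subunit of prolyl hydroxylase, which stood at −2.55, −4.68 and −6.01 and was dim (−0.46 for stomach minus esophagus after normexp). Plod2, a lysyl hydroxylase, was 2.05-fold lower in stomach than in esophagus (−0.94 log2 units after normexp), and Creb3l1, a transcription factor of collagen-secreting cells, was 2.22-fold lower in intestine (−0.64 under quantile normalization).

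Among the enzymes that trim and crosslink collagen outside the cell, Lox stood out. Lox, a lysyl oxidase that crosslinks fibrils, stood at −0.17 in esophagus, −3.44 in stomach and −5.04 in intestine. Esophagus was 9.66-fold above stomach and 29.3-fold above intestine, and normexp gave −1.97 and −3.40 log2 units for stomach and intestine relative to esophagus. Its relatives Loxl1 and Loxl3 were within 2-fold in every comparison, and Loxl2 was 2.27-fold lower in intestine than in esophagus (−0.996 log2 units after normexp). Adamts2, the main procollagen N-proteinase, was the only gene of the list at least 2-fold higher anywhere, with 1.41 for intestine minus stomach (0.84 with averaged probes). Of 10 genes compared, 0 were higher and 2 lower in stomach against esophagus (background 4.14% and 5.71%), 0 and 3 in intestine against esophagus (8.74% and 12%), and 1 and 3 in intestine against stomach (4.96% and 7.47%).

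Receptors that bind collagen on cells were lower in stomach and intestine than in esophagus where they differed by 2-fold or more. Ddr2, a receptor kinase for fibrillar collagen, stood at −0.92 in esophagus, −2.74 in stomach and −3.88 in intestine. Itga11 and Itga1, integrin subunits for fibrillar and for network collagens, stood at −0.16, −1.41 and −1.85 and at −0.92, −1.94 and −3.11. For all of these genes esophagus was highest and intestine lowest. Itgb1, the shared integrin partner, and Mrc2, a collagen uptake receptor, were within 2-fold by their brightest probes. The Itgb1 values for intestine depended on the probe. With averaged probes its intestine minus esophagus was −0.98, against 0.12, and its intestine minus stomach −0.41, against 0.62. At least 2-fold lower were 3 of 6 compared in stomach against esophagus (background 5.71%; 0 after normexp, with Ddr2 at −0.95), 4 of 6 in intestine against esophagus (background 12%) and 3 of 6 in intestine against stomach (background 7.47%), and 0 were higher in any (background 4.14%, 8.74% and 4.96%).

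In the breakdown list, the collagenases Mmp8 and Mmp13 were not well above background on any array. Mmp14 and Mmp2, which degrade collagen at the cell surface and in the matrix, lay within 2-fold in all comparisons. Their inhibitor Timp3 stood at 4.19, 2.87 and 2.34 and Timp2 at 5.39, 4.54 and 4.16, both highest in esophagus. Timp1 and Reck, of the same list, went the other way and were highest in intestine, within 2-fold. Relative to esophagus, Timp1 lay 0.76 log2 units higher in stomach and 0.91 higher in intestine. The same differences for Reck were 0.03 and 0.76. At least 2-fold lower were 2 of 8 genes in stomach against esophagus (background 5.71%), 3 of 9 in intestine against esophagus (background 12%) and 0 of 9 in intestine against stomach (background 7.47%), where 1 (Ctsk; background 4.96%) was higher with 1.38, a value that turned to −0.54 after normexp.

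**Figure D4:**
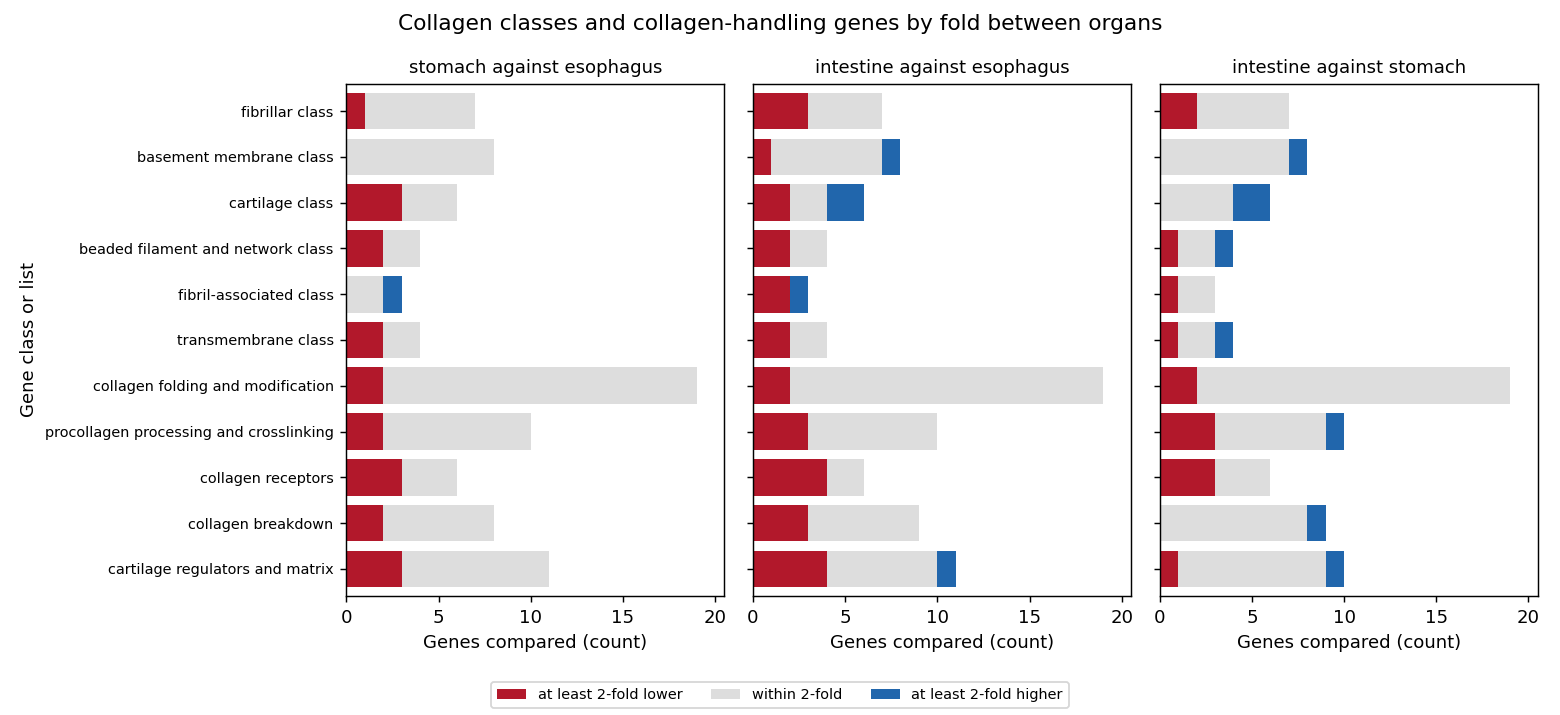
Number of genes in each collagen class and in 5 lists of collagen-related genes that were at least 2-fold lower, within 2-fold or at least 2-fold higher, for stomach against esophagus, intestine against esophagus and intestine against stomach. Folding genes are mostly within 2-fold (17 of 19 each time, against 90.2%, 79.3% and 87.6% of all genes), and the receptor list has 3, 4 and 3 of 6 genes lower (against 5.71%, 12% and 7.47%).

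Mesenchyme markers were read as the signal of the cells that make fibrillar collagen. All 10 were measured on every array, and their summed signal was 83.4, 72.0 and 76.9 in esophagus, stomach and intestine. Pdgfra and Vim stayed within 2-fold. Prrx1 and Twist1, mesenchyme transcription factors strong in limb and head, stood at 3.01, −0.09 and −1.81 and at 1.17, −1.04 and −1.51, so that both were highest in esophagus, as type I collagen was. Other markers of the list went the opposite way: Tcf21, a transcription factor of visceral mesenchyme, stood at 1.06, 2.22 and 3.01, and Zeb1, a factor of mesenchymal cells, at 1.05, 0.87 and 1.57, both highest in intestine. Of the 10, 1 was at least 2-fold higher and 3 lower in stomach against esophagus (background 4.14% and 5.71%), 1 and 2 in intestine against esophagus (8.74% and 12%), and 1 and 1 in intestine against stomach (4.96% and 7.47%). In whole organs, fewer cells of a type and less RNA per cell cannot be told apart, and all 3 arrays lay on 1 slide, so that place on the slide and organ cannot be told apart.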

How the data were processed

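Agilent Feature Extraction 10.5.1.1 produced the scanner files, per the file headers. The deposited processed signal is an intensity with background subtracted and spatial trends removed, and arrays were not scaled to each other. The labels name no test. The members and gene lists were chosen with earlier results of these data known, and the rule for named genes gives every member measured on an array and, from each list, the defining genes and up to the 4 largest differences of at least 2-fold in a comparison.

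Here the processed signal of each array was divided by its 75th percentile (control spots aside) and put on the log2 scale. Outlier spots (111, 70 and 77 in esophagus, stomach and intestine) were left out, and no spot was saturated. Spots of a probe were averaged. Accessions were matched without versions to RefSeq genes (assembly GRCm38.p6), which named 24342 of 41112 probes. A gene was compared when measured on at least 1 of the 2 arrays. Where 1 array was dim, the difference is a bound, written as at least N-fold: the dim side is set to the lowest signal that any measured probe had on that array (7.03, 5.85 and 8.17) or to the probe's own signal, whichever is higher. Calls are differences of at least 2-fold, and with 1 array per organ there is no test, the number of arrays limiting the precision.

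The authors also deposited log2 values, with medians of −2.97, −3.17 and −3.47 by array. Compared with the scanner signals they were the same scaling without centring by probe, since 99.8% to 99.9% of probes matched within 0.01 once 1 constant per array was removed. They were used as an alternative, beside normexp (limma 3.58.1 in R 4.3.3, offset 50, on the deposited median spot and background intensity), quantile normalization, median centring, averaged probes, other filters and other class memberships. The rule for differences and bounds and the 2-fold calls were tested on simulated data, and the other steps were not.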

Additional observations from a re-analysis of the deposited data

How the results depend on the processing

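Over 7 alternatives the differences of the collagen genes kept their direction wherever at least 2-fold apart. The deposited table, median centring and the other filters could not have reversed such a difference. They reused the same values with a small shift or another rule for dim probes. Only normexp, quantile normalization and averaged probes could have done so. The deposited table moved none of 96 values by more than the spread between probes. Normexp moved 20 of 96, averaged probes 23, quantile normalization 3 and keeping dim probes 2. Counts and medians that moved were these. Quantile normalization gave 3 genes at least 2-fold higher in stomach against esophagus, in place of 1, and 3 lower in intestine against stomach, in place of 5 (Col17a1 and Col1a2 were lost). Averaged probes gave 2 higher in stomach against esophagus and 9 lower in intestine against stomach, and fibrillar medians of −0.49 for stomach and −0.52 for intestine against esophagus. Counting every fibril-forming gene as fibrillar gave −0.49 for intestine against esophagus. Normexp gave a cartilage median of −0.47 for stomach against esophagus. Median centring gave 3 genes higher in intestine against stomach, in place of 5 (Col4a1 and Col6a1 were lost). Among list genes, intestine minus stomach reversed for Ctsk (−0.54 after normexp) and for Col24a1, outside the members, from 1.02 to −0.38 after normexp and −0.10 with averaged probes. The cause was not tested. Over all genes, the share of calls that were higher was 42.0%, 42.2% and 39.9% for the 3 comparisons in the order used, against 54.2%, 57.2% and 54.5% after quantile normalization, 36.8%, 26.8% and 13.3% after normexp, 36.3%, 32.9% and 35.5% with median centring, and 46.5%, 34.6% and 27.7% with dim probes kept, and the all-gene median for intestine against esophagus went from 0.13 to 0.02 with median centring and 0.00 after normexp. No paired analysis was possible because each organ has 1 array and the groups share fewer than 2 replicate numbers. Leaving out a replicate could not be run for the same reason. Signal over background limits the dim genes, here Col5a3, Col9a1 in stomach, Col9a3, Col11a2, Col17a1, Col19a1 and Col25a1 in stomach.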

Other observations

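Collagen-like genes outside the 36 were read too. Col26a1, a collagen of the reproductive tract, stood at 4.20 in esophagus, 2.77 in stomach and 3.24 in intestine, 2.69-fold higher in esophagus than in stomach, the direction of Col1a1 and Col6a1. Col24a1, a fibrillar collagen of bone, was dim on all arrays, at −4.07, −4.27 and −3.26. Col28a1 was not well above background on any.

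The dimmer probes of a collagen gene tended to place intestine lower than the brightest probe did. For intestine minus esophagus the other probes lay a median of 0.63 log2 units below the one used (12 of 17 genes, 70.6%), against 0.15 below for all genes with several probes (57.6% of 4698). For intestine minus stomach the collagen value was 0.51 below (13 of 17 genes, 76.5%), against 0.03 below (52.4% of 4695). For stomach minus esophagus it was 0.23 below (11 of 16, 68.8%) against 0.14 below (62.2% of 4619). Over all genes the gap for intestine minus esophagus was 0.49 below where the other probes were over 8-fold dimmer than the one used (69.2% of 1231 genes). A count of collagen genes lower in intestine therefore moves with the probe chosen, as for Col3a1 and Col11a1, whose brightest and dimmer probes disagreed by 1.96 and 2.17 log2 units for intestine minus esophagus.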
